A study of Homo sapiens with 6 samples.

Results

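REST (RE1 silencing transcription factor) and 36 neuronal genes were examined in HCT116 cells, an epithelial colorectal cancer cell line, with and without the histone demethylase LSD1. The 37 genes were chosen by symbol as the repressor and genes with roles in neurons, many of which are known to be silenced through REST and its corepressors, and all 37 were found among the 60240 genes of the count table. The experiment asked how expression differs once LSD1, which removes methyl groups from H3K4, is lost. RNA-seq libraries were made from polyA RNA of 3 samples of wild-type cells (WT) and 3 samples of LSD1 knockout cells (LSD1 KO), with no other treatment named. The knockout was made with CRISPR/Cas9 directed at exon 1 of KDM1A, the gene that encodes LSD1, followed by a short puromycin selection and expansion of single clones, and the labels do not say which clone or clones gave the 3 LSD1 KO libraries. A difference between the groups and a difference between a clone and its parent line therefore cannot be told apart. The study's methods state in general that experiments had biological replicates, but the labels do not say whether the 3 libraries of a group came from separate cultures. If they did not, p-values measure only the spread between these libraries, which may be technical.

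REST is a zinc finger protein that binds a conserved DNA element, RE1, near many neuronal genes and keeps them silent outside the nervous system. One of its arms recruits CoREST (the RCOR proteins), a scaffold that holds LSD1 together with the histone deacetylases HDAC1 and HDAC2, and the other arm recruits SIN3 with deacetylases. The best known targets encode synaptic vesicle proteins, secretory granule proteins and neuronal cytoskeleton.

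To show what such an element looks like beside these genes, the RefSeq promoter windows of the GRCh38.p14 assembly, which run from 250 bases before to 50 bases after a transcription start, were searched for the RE1 letters. The search used the left part TTCAGCACC, 2 free bases and the right part GGACAGCGC on both strands, with up to 3 mismatches among the 18 fixed bases. Promoter windows were found for 25 of the 37 genes, 39 windows in all. Of all 35116 windows, 0.128% held a match, which is a share of windows and not of genes. Among the 25 genes, 3 held a match. They are SYN1 (synapsin I, a coat protein of synaptic vesicles), VGF (a secreted neuropeptide precursor) and CELSR3 (a cadherin of developing axons), and they are printed because genes with such letters at the start ranged from nearly silent to highly expressed in these cells. Among 48 other neuronal genes with a window, 1 held a match, GRIA2, which encodes an AMPA receptor subunit. Each sequence is given 5′ to 3′ in the direction of the motif, with the 20 bases of the match in capitals and 5 flanking bases on each side.
SYN1: ccagcTTCAGCACCGCGGACAGTGCcttcg
VGF: ccggcTTCAGCACGCTGGACAGCGCccgcg
CELSR3: ctctgTTCAGCACCAGGAGCAACGCtcacg
GRIA2: ggcctTTCAGCACCGAGGACAGCGCctcgc

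Counted from 1 at the 5′ end of the motif, with the searched base first, the SYN1 match carried C18T and the VGF match C9G. The CELSR3 match carried G13A, A14G and G17A, and the GRIA2 match had 0 mismatches. Windows with at most 1 mismatch made up 0.0256% of all windows and windows with 0 mismatches 0.0057%. The SYN1 sequence lies at chrX:47620066-47620095, upstream of the gene, with the motif at positions -233 to -214 from the start. The VGF sequence lies at chr7:101165554-101165583 with the motif at positions -9 to 11, across the start and on the opposite strand to the gene. The CELSR3 sequence lies at chr3:48663010-48663039, positions -148 to -129, and the GRIA2 sequence at chr4:157220384-157220413, positions -230 to -211. The GRIA2 motif is also on the opposite strand to its gene, whereas the SYN1 and CELSR3 motifs are on the strand of theirs. A match is a description of letters, and occupancy by REST was not measured in these libraries. Sequence outside the windows was not searched, so a gene without a match may still carry an RE1 elsewhere.

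The 6 libraries held between 25379279 and 29186963 counts, so that 3 counts in a library, taken as the floor of detection, amounted to 0.103 to 0.118 CPM of the total counts. CPM values of genes are counts normalised to the library size, with TMM factors. This floor covers counting error only. Libraries of the 2 groups with the same replicate number deviated together from their group means, so fold changes are given both from a model without and from one with the replicate number as a block. Calls over all genes rose from 282 to 1055 in the model with the block when both replicate 2 libraries were left out, so results that rest on them are also given without them.

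KDM1A stood at 230.8, 224.1 and 213.5 CPM in WT replicates 1 to 3 and at 29.9, 27.6 and 27.7 CPM in LSD1 KO. All LSD1 KO libraries lay far below all WT libraries, and their mean was 12.7% of that in WT. Its log2 fold change was -2.97 (SE 0.15, n = 3 per group, q = 0.000451 by the edgeR quasi-likelihood test). Of the 9 epithelial markers, KRT8, KRT18, KRT19, EPCAM, CDH1 and CDX2 were expressed and CDX1 was at 0, with summed levels of 2041.2 to 3816.0 CPM in WT and 2418.1 to 3156.8 CPM in LSD1 KO. EPCAM was lower in LSD1 KO, with 133.8, 77.5 and 101.3 CPM against 190.9, 247.8 and 172.6 CPM in WT (q = 0.668 without the block, 0.0788 with it). The other epithelial markers were not called in either model and did not share a direction, with log2 fold changes of -0.50 for KRT18, 0.42 for KRT19 and -0.0054 for CDX2. The 6 neuron markers summed to 15.1 to 35.8 CPM in WT and 16.8 to 37.5 CPM in LSD1 KO, most of it from GRIN1, while SLC17A6 was at 0 and SLC32A1 and CAMK2A at or under 3 counts in every library. The 5 fibroblast markers summed to 20.4 to 23.9 CPM in WT and 30.1 to 34 CPM in LSD1 KO, nearly all of it COL1A1, with LUM and PDGFRA at 0. The 5 immune markers summed to 17.1 to 20.4 and 23.1 to 34.1 CPM, nearly all of it CD68, with CD3E at 0. The fibroblast and immune sums were each higher in every LSD1 KO library than in any WT library. Of 14 markers tested, the model with the block called EPCAM lower and 1 that is not epithelial higher, against 0.549% and 1.05% of all genes tested. The DESeq2 Wald test called 1. Without the block, 4 of the 14 had an unadjusted p under 0.05, against 3.12% of all genes tested. The part of these marker differences in the results below was not tested.

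The neuronal genes that were silent in WT cells stayed at or near the floor in LSD1 KO cells. In WT, 9 of the 37 genes were at or under 3 counts in each library, and 0 of the 9 were above 3 counts in each LSD1 KO library. Of the genes with counts in any library that were at the floor in WT, to which 6 of the 9 belong, 0.469% left it (47 of 10024). With so few genes, 0 of 9 cannot be told apart from this share. These 9 genes were SYT4 (a synaptotagmin), CHGB and SCG3 (granins of dense core granules), STMN2 (a microtubule regulator of growing axons), NEFL, NEFM and INA (neurofilament subunits and internexin), ELAVL4 (the RNA-binding protein HuD) and NEUROD1 (a neurogenic transcription factor). SYT4, NEFM and INA had 0 counts in all 6 libraries. The other 6 of the 9 reached at most 2 counts in any library. In bulk RNA, a transcript made by fewer cells and a transcript made at a lower level per cell cannot be told apart.

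Another 5 genes were above the floor in at least 1 WT library but had too few counts to be tested. Of these, CHGA and ELAVL3 were at the floor in every LSD1 KO library. In CHGA (chromogranin A), the WT libraries held 1, 2 and 8 counts and the LSD1 KO libraries 1, 0 and 0. After scaling, its LSD1 KO libraries were all below its WT libraries, although replicate 1 had 1 count in both groups. For NEFH (the heavy neurofilament subunit) the counts were 12, 5 and 5 in WT against 8, 2 and 3 in LSD1 KO. For ELAVL3 (HuC, an RNA-binding protein of neurons) they were 7, 1 and 9 in WT against 3, 1 and 3 in LSD1 KO. The sodium channel genes SCN2A and SCN3B stayed between 2 and 18 counts, with overlapping groups. At this depth, 11 of the 37 genes were at the floor in each LSD1 KO library, 9 of them also in each WT library. Of these 11, 0 fell there from above the floor in each WT library. Of the 10113 genes with counts in any library that were at the floor in LSD1 KO, 0.534% did. That set leaves out SYT4, NEFM and INA, which had 0 counts in all libraries. With so few genes, 0 of 11 cannot be told apart from this share.

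**Figure D1:**
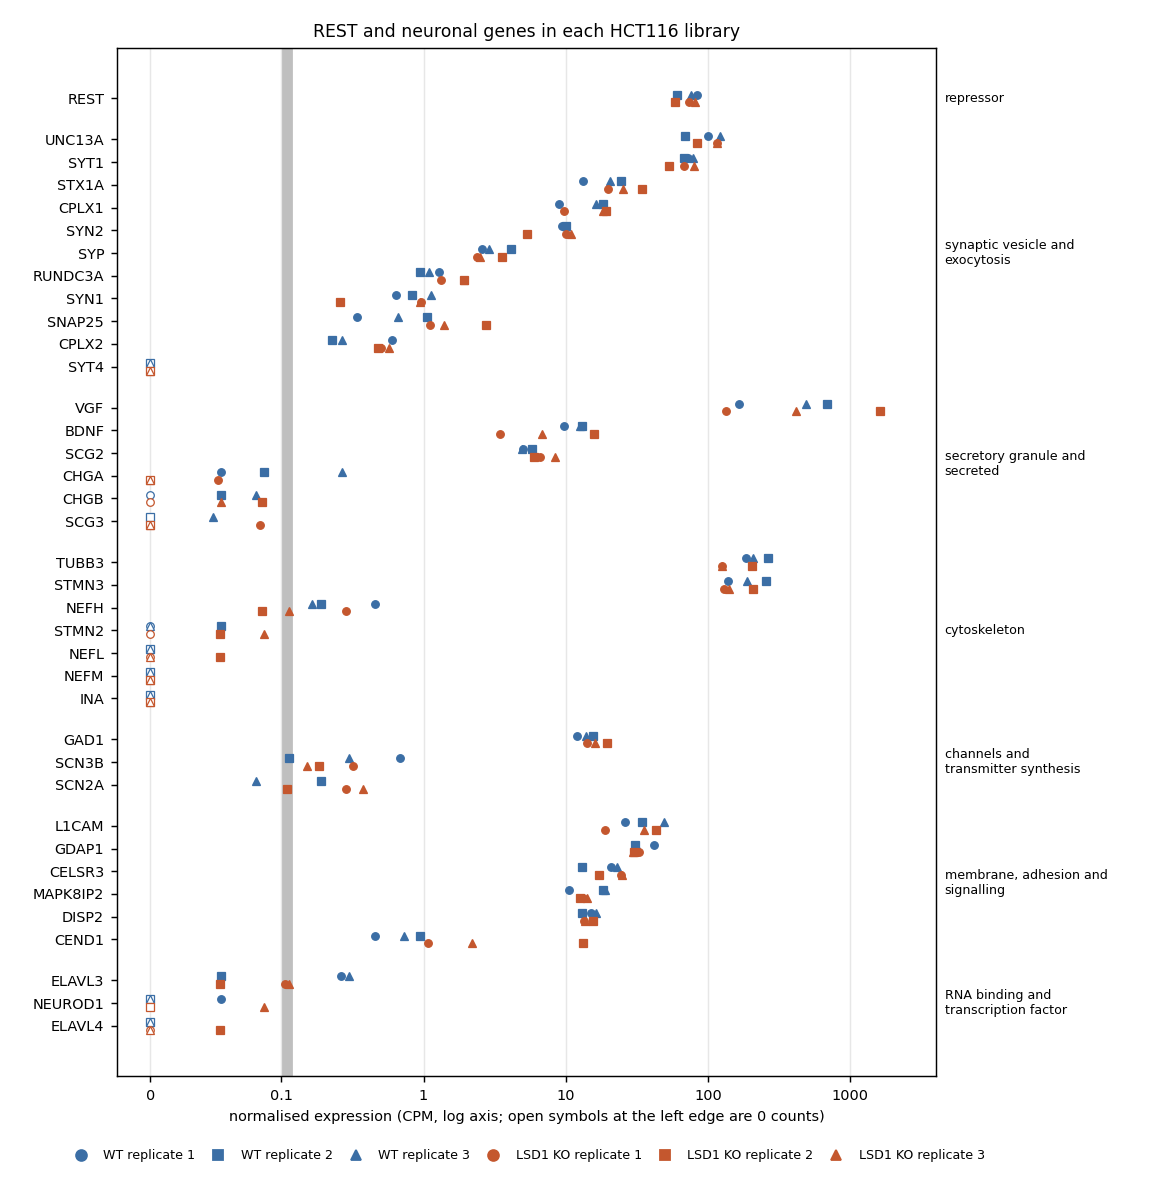
Expression of REST and the 36 neuronal genes in each library, as CPM on a log axis, grouped by role (blue, WT; orange, LSD1 KO; the symbol gives the replicate number). The grey band marks the level of 3 counts, 0.103 to 0.118 CPM, and open symbols at the left edge are libraries with 0 counts. The genes run from SYT4, NEFM and INA at 0 to VGF at 134.6 to 1605.5 CPM, and libraries of both colours lie together for most genes.

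The remaining 23 genes, REST among them, passed the filter on low counts and were tested among 17672 genes. In the model without the block, 0 of the 23 were called in either direction at a q value under 0.1, and each had a q value of 0.999. KDM1A was the only gene called over the whole table, which is 0.00566% of the genes tested. At an unadjusted p under 0.05 there were 2 of the 23, SNAP25 and CEND1, against 3.12% of all genes tested. SNAP25 passed the filter on low counts only with its LSD1 KO libraries, where it was higher. Its place in this count and in the one with the block therefore depends in part on the filter. The DESeq2 Wald test also called 0 of them, against 0.37% of the genes to which it gave an adjusted p. In the model with the block, CEND1 was called higher and TUBB3 lower, against 1.05% of all genes tested called higher and 0.549% called lower. With the block, 5 of the 23 (CEND1, SNAP25, STX1A, STMN3 and TUBB3) had an unadjusted p under 0.05, against 13.4% of all genes tested.

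The 23 log2 fold changes were spread around 0, with 11 above and 12 below it. Their median was -0.05, beside 0.00082 over all genes tested, and 18 of the 23 lay within 0.5 of 0. The other 5 were CEND1, SNAP25, VGF and RUNDC3A above 0 and TUBB3 below it. A gene passed the filter on low counts if 3 libraries held enough counts. SNAP25 (9, 28 and 20 counts in WT) and CPLX2 (16, 6 and 8) reached this only with their LSD1 KO libraries. SYN1 (27, 7 and 25 counts in LSD1 KO) reached it only with its WT libraries. The results of these genes therefore depend in part on the filter. The LSD1 KO libraries lay entirely above the WT libraries for 4 of the 23 (SNAP25, RUNDC3A, SCG2 and CEND1), against 4.2% of all genes tested. They lay entirely below them for 0 of the 23, against 3.55%. Compared within replicate numbers, 8 genes were higher and 4 lower in LSD1 KO in all 3 pairs, against 18.8% and 17.5% of all genes tested.

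**Figure D2:**
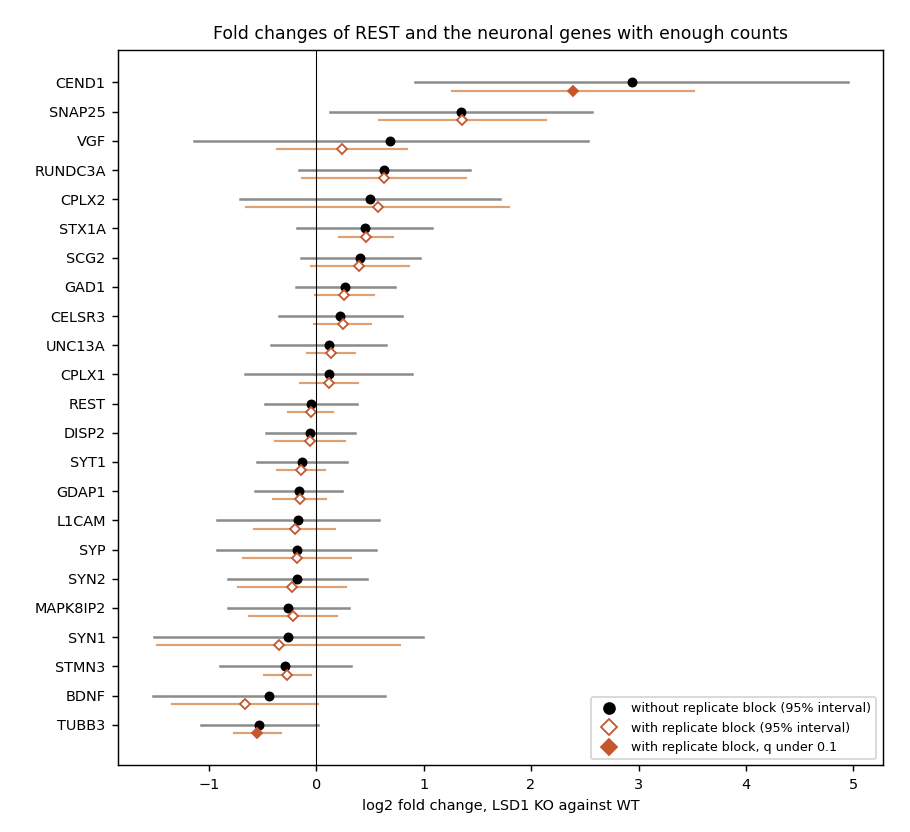
Log2 fold changes of REST and the 22 neuronal genes with enough counts, LSD1 KO against WT, with 95% intervals. Black circles are from the model without the replicate block and orange diamonds from the model with it, filled where q was under 0.1. The values run from -0.53 for TUBB3 to 2.94 for CEND1, and CEND1 and TUBB3 have the filled diamonds.

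REST itself was expressed in both groups and was not called with or without the block. It stood at 83.2, 60.7 and 76.4 CPM in WT and at 73.9, 58.6 and 80.3 CPM in LSD1 KO. The groups overlapped, with replicate 2 the lowest in each. The means were 73.4 ± 11.5 and 71.0 ± 11.2 CPM (SD, n = 3). The log2 fold change was -0.05 (SE 0.19, 95% interval -0.48 to 0.38, q = 0.999; q = 0.859 with the block), and its sign turned when WT replicate 1 or LSD1 KO replicate 2 was left out. The gene lies at chr4:57774042-57832974 on the plus strand (GRCh37, GENCODE v44lift37).

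Genes for the protein partners of REST were expressed in both groups, and KDM1A was the one called. Of 27 genes for the CoREST complex, other corepressors and regulators of REST, 26 were tested and KDM1A alone was called, in the models with and without the block. Over all genes tested, 0.00566% were called without the block, and 1.05% were called higher and 0.549% lower with it. The other 25 had log2 fold changes between -0.26 (CTDSP1, a phosphatase that acts on REST) and 0.59 (ZNF217, a zinc finger protein found with CoREST). RCOR1, the CoREST scaffold, had 68.2, 57.7 and 69.9 CPM in WT and 73.4, 79.4 and 74.5 CPM in LSD1 KO, with a log2 fold change of 0.21 (SE 0.15, q = 0.999). ZNF217 had 47.9, 37.5 and 50.2 CPM in WT and 54.9, 82.7 and 66.9 CPM in LSD1 KO (SE 0.20, q = 0.999; q = 0.188 with the block). The LSD1 KO libraries lay entirely above the WT libraries for these 2 of the 26 genes, against 4.2% of all genes tested. They lay entirely below them for KDM1A alone, against 3.55%. RCOR1 and ZNF217 were picked for description after their values were seen. HDAC1 and HDAC2 had log2 fold changes of 0.04 (SE 0.17) and 0.03 (SE 0.16). SRRM4, the splicing factor that inactivates REST in neurons, had too few counts to be tested.

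Of the 11 synaptic vesicle and exocytosis genes, 10 were tested and 0 were called with or without the block. SNAP25, a SNARE protein of the presynaptic membrane, was weakly expressed, at 0.334 CPM per kb of canonical transcript in WT, and had the largest fold change of this group. Its counts were 9, 28 and 20 in WT against 31, 75 and 37 in LSD1 KO, or 0.34, 1.06 and 0.662 against 1.11, 2.76 and 1.4 CPM. The lowest LSD1 KO library lay just above the highest WT library, and each LSD1 KO library exceeded the WT library of its number. The fitted log2 difference was 1.35 (SE 0.54, 95% interval 0.13 to 2.57, unadjusted p = 0.0343, q = 0.999). With the block it was 1.36 (SE 0.34, q = 0.141). SNAP25 passed the filter on low counts only with its LSD1 KO libraries, so these p and q values depend in part on the filter. SNAP25 shares 5.36% of its 31-base words with other genes, some of them with far more counts, such as PRKDC with 13921 to 29697 per library, so its low counts are uncertain.

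RUNDC3A, which encodes a partner of the small GTPase RAP2, also had groups that did not overlap, with 1.28, 0.945 and 1.09 CPM in WT and 1.32, 1.91 and 1.93 CPM in LSD1 KO. WT replicate 1 and LSD1 KO replicate 1 were nearly equal, and the log2 fold change was 0.63 (SE 0.35, q = 0.999; q = 0.465 with the block). Its exons overlap an antisense gene, RUNDC3A-AS1, which had 125 to 215 counts per library, more than the 25 to 52 counts of RUNDC3A. The counting is not stated to use strand, so reads from the overlap cannot be assigned to either gene with certainty. STX1A (syntaxin 1A, the SNARE partner of SNAP25) had 13.3, 24.3 and 20.5 CPM in WT and 19.9, 34.3 and 25.3 CPM in LSD1 KO. Each LSD1 KO library was above the WT library of its number, but the groups overlapped. Its log2 fold change was 0.45 (SE 0.28, q = 0.999; q = 0.13 with the block), and without both replicate 2 libraries it was 0.42 with the block (SE 0.13, q = 0.0866).

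For the other vesicle genes the groups overlapped, and without the block the log2 fold changes were smaller than their standard errors. With the block some exceeded them, such as SYT1 (-0.14, SE 0.099) and UNC13A (0.14, SE 0.099), and the lowest q was 0.582 (SYT1). In all 3 pairs, CPLX1 was higher and SYP lower in LSD1 KO. SYT1 (synaptotagmin 1, the calcium sensor of vesicle release) stood at 72.3, 67.3 and 78.7 CPM in WT and 67.8, 53.0 and 79.0 CPM in LSD1 KO. UNC13A (a vesicle priming protein) stood at 99.8, 68.3 and 120.5 CPM in WT and 114.6, 83.3 and 114.8 CPM in LSD1 KO. CPLX1 (complexin 1, a clamp on the SNARE complex) stood at 8.9, 18.4 and 16.4 CPM in WT and 9.71, 19.2 and 18.4 CPM in LSD1 KO. The log2 fold changes of SYT1, UNC13A and CPLX1 were -0.13 (SE 0.18), 0.12 (SE 0.24) and 0.12 (SE 0.34). SYP (synaptophysin, a membrane protein of the vesicle) had 2.57, 4.12 and 2.88 CPM in WT and 2.36, 3.57 and 2.5 CPM in LSD1 KO. SYN2 (synapsin II) had 9.43, 10.1 and 10.1 CPM in WT and 10.0, 5.37 and 10.8 CPM in LSD1 KO. LSD1 KO replicate 2 alone was low for SYN2, and without it the log2 fold change moved from -0.18 (SE 0.28) to 0.06. SYN1, whose promoter holds the RE1-like letters shown above with 1 mismatch, stayed between 7 and 34 counts in the 6 libraries, with a log2 fold change of -0.26 (SE 0.55). CPLX2 (complexin 2) stayed between 6 and 16 counts, with a log2 fold change of 0.50 (SE 0.53).

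Among the 6 secretory granule and secreted genes, VGF was already expressed at a high level in WT cells. It stood at 163.7, 687.4 and 485.8 CPM in WT and at 134.6, 1605.5 and 417.4 CPM in LSD1 KO. Replicate 2 was the highest and replicate 1 the lowest library in both groups, and the groups overlapped. The highest library exceeded the lowest 4.2-fold in WT and 11.9-fold in LSD1 KO. The log2 fold change was 0.69 (SE 0.80, q = 0.999) and with the block 0.24 (SE 0.26, q = 0.752). It was 1.22 in pair 2 but -0.28 and -0.22 in pairs 1 and 3, and without LSD1 KO replicate 2 the fitted value was -0.71. Scaled to the length of the canonical transcript, VGF reached 174.7 CPM per kb in WT, above 98.1% of the genes tested, and the RE1-like letters across its start differ from the searched motif at 1 base. SYN1, also with 1 mismatch, reached 0.27 CPM per kb, above 8.06% of the genes tested, and CELSR3, with 3 mismatches, 1.58 CPM per kb. VGF lies at chr7:100805790-100808850 on the minus strand (GRCh37, GENCODE v44lift37).

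**Figure D3:**
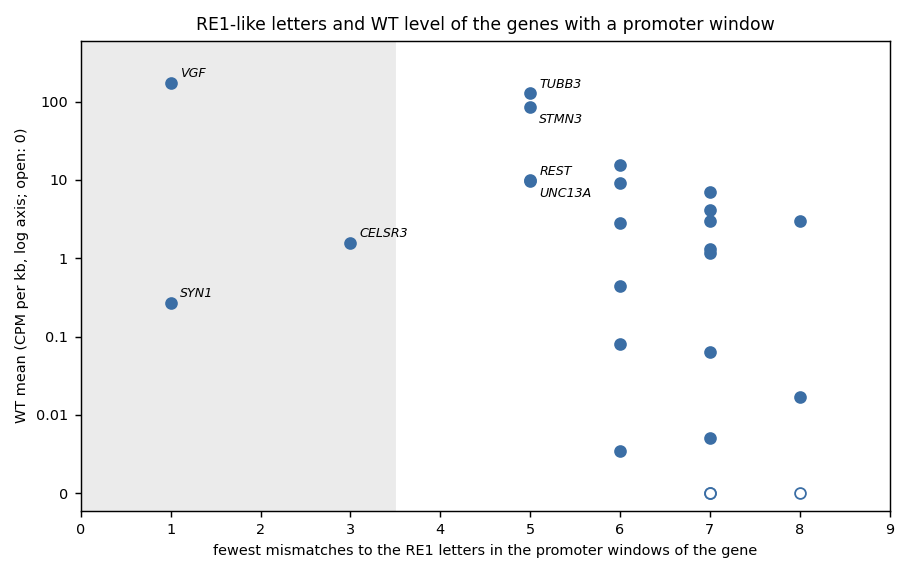
WT level, as mean CPM per kb of canonical transcript on a log axis, against the fewest mismatches to the RE1 letters in the promoter windows of a gene, for the 25 genes with a window (each point 1 gene; open points at 0). The shaded part holds matches with at most 3 mismatches, where VGF is at 174.7, CELSR3 at 1.58 and SYN1 at 0.27 CPM per kb. Sequence outside the windows was not searched, so genes to the right may still carry an RE1.

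BDNF (brain-derived neurotrophic factor) had 9.69, 13 and 12.6 CPM in WT and 3.46, 15.8 and 6.81 CPM in LSD1 KO. LSD1 KO replicates 1 and 3 were below all WT libraries, whereas LSD1 KO replicate 2 was above them. The fitted log2 difference was -0.44 (SE 0.47, q = 0.999; -0.66 and q = 0.384 with the block). Without both replicate 2 libraries it was -1.18 with the block (SE 0.19, q = 0.000303), from 2 pairs. Of the 31-base words of BDNF transcripts, 11.5% are shared with the antisense gene BDNF-AS, which had 44 to 118 counts per library. SCG2 (secretogranin II) had 5.02, 5.79 and 4.9 CPM in WT and 6.54, 5.96 and 8.43 CPM in LSD1 KO. The groups did not overlap, but LSD1 KO replicate 2 exceeded WT replicate 2 only slightly. Its log2 fold change was 0.41 (SE 0.24, q = 0.999; q = 0.427 with the block).

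Of the 7 cytoskeleton genes, TUBB3 and STMN3 were tested, and both were expressed at high levels. TUBB3, the tubulin isotype used as a marker of neurons, stood at 183.3, 262.4 and 207.8 CPM in WT and at 126.0, 202.0 and 125.3 CPM in LSD1 KO. The groups overlapped through LSD1 KO replicate 2, and replicate 2 was the highest library of each group, while each LSD1 KO library was below the WT library of its number. The means were 217.8 ± 40.5 and 151.1 ± 44.1 CPM (SD, n = 3). The log2 fold change was -0.53 (SE 0.24, q = 0.999) and with the block TUBB3 fell by 0.55 on the log2 scale (SE 0.096, q = 0.0508), with differences of -0.54, -0.38 and -0.73 in pairs 1 to 3. Without both replicate 2 libraries it fell by 0.65 with the block (SE 0.10, q = 0.000214). TUBB3 (chr16:89987800-90005169, plus strand, GRCh37, GENCODE v44lift37) shares 29.6% of its 31-base words with other genes, most of them with an overlapping readthrough gene that had 0 to 13 counts. Among tubulin paralogs, it shares 3.09% with TUBB2A (1273 to 2058 counts per library) and 1.54% with TUBB4B (16343 to 23894), so part of its counts is uncertain.

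STMN3 (a microtubule-destabilizing stathmin) stood at 138.7, 255.8 and 188.2 CPM in WT and 130.4, 207.6 and 139.8 CPM in LSD1 KO. It was lower in LSD1 KO in all 3 pairs, with overlapping groups and a log2 fold change of -0.29 (SE 0.27, q = 0.999; q = 0.273 with the block). Per kb of transcript, TUBB3 reached 127.7 and STMN3 86.4 CPM in WT, above 97.3% and 95.8% of the genes tested. VGF, TUBB3 and STMN3 together made up 69.7% of the summed WT CPM of the 36 neuronal genes. That sum was 837.9, 1546.2 and 1305.0 CPM in WT and 747.9, 2392.2 and 1089.7 CPM in LSD1 KO. Without VGF it was 784.1 ± 97.2 CPM in WT and 690.8 ± 88.2 CPM in LSD1 KO (SD, n = 3), so that the LSD1 KO mean was then below the WT mean. The libraries overlapped, with 674.2, 858.8 and 819.1 CPM in WT and 613.3, 786.7 and 672.3 CPM in LSD1 KO. TUBB3 and STMN3, both with a lower mean in LSD1 KO, are part of this sum.

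CEND1, a membrane protein linked to cell cycle exit in neuronal precursors, had the largest difference of the 23 genes. Its counts were 12, 25 and 22 in WT against 30, 356 and 58 in LSD1 KO, or 0.453, 0.945 and 0.728 against 1.07, 13.1 and 2.19 CPM. Every LSD1 KO library was above every WT library, and LSD1 KO replicate 2 stood far above the other 5. The means were 0.709 ± 0.247 and 5.46 ± 6.65 CPM (SD, n = 3). The fitted log2 difference was 2.94 (SE 0.88, unadjusted p = 0.00958, q = 0.999), and with the block CEND1 rose by 2.39 (SE 0.49, q = 0.0862). Without LSD1 KO replicate 2 the value was 1.18 and was not called, and without both replicate 2 libraries it was 1.41 with the block (SE 0.47, q = 0.108). The differences were 1.12, 3.69 and 1.5 in pairs 1 to 3. CEND1 lies at chr11:787115-790113 on the minus strand (GRCh37, GENCODE v44lift37) and shares 2.21% of its 31-base words with other genes.

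**Figure D4:**
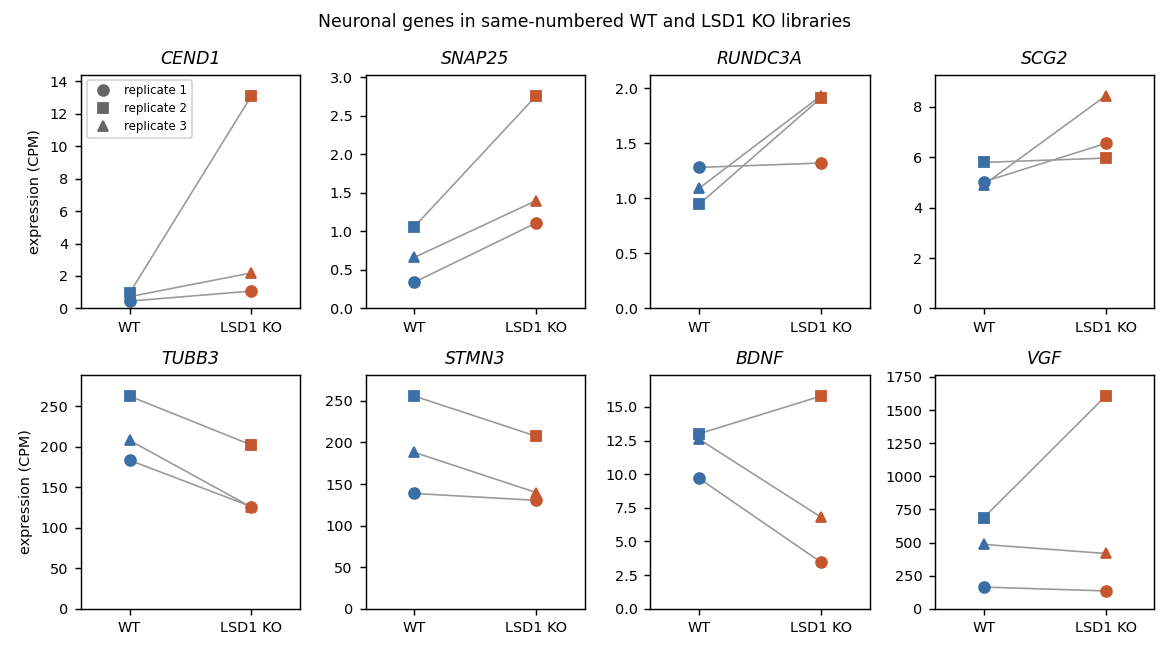
Expression in CPM of 8 neuronal genes in WT (blue) and LSD1 KO (orange) libraries, with a line joining the libraries of the same replicate number and a linear axis from 0. CEND1, SNAP25, RUNDC3A and SCG2 are higher in LSD1 KO in all 3 pairs and TUBB3 and STMN3 lower, while VGF and BDNF are higher in pair 2 and lower in pairs 1 and 3.

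The other genes of membrane, adhesion and signalling were not called with or without the block, and their groups overlapped. L1CAM (a cell adhesion molecule of axons) stood at 26.1, 34.1 and 48.7 CPM in WT and 18.8, 42.8 and 35.2 CPM in LSD1 KO. Its log2 fold change was -0.17 (SE 0.33), and -0.49 (SE 0.12, q = 0.0152) with the block and without both replicate 2 libraries. CELSR3 stood at 20.9, 12.9 and 22.9 CPM in WT and 24.3, 17.2 and 24.8 CPM in LSD1 KO, higher in all 3 pairs, with a log2 fold change of 0.22 (SE 0.25, q = 0.403 with the block). GDAP1 (a protein of mitochondria, mutated in an inherited neuropathy) stood at 41.8, 30.8 and 30.9 CPM in WT and 32.7, 30.2 and 29.5 CPM in LSD1 KO. MAPK8IP2 (a scaffold of JNK signalling) stood at 10.6, 18.3 and 18.8 CPM in WT and 13.2, 12.6 and 14.0 CPM in LSD1 KO. DISP2 (a relative of the Hedgehog release protein dispatched) stood at 15.0, 12.9 and 16.4 CPM in WT and 13.5, 15.4 and 13.6 CPM in LSD1 KO. The log2 fold changes of these 3 genes were -0.16 (SE 0.18), -0.26 (SE 0.24) and -0.06 (SE 0.18).

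GAD1 (glutamate decarboxylase, which makes the transmitter GABA) was the tested gene of the channel and transmitter group. It had 11.9, 15.4 and 13.8 CPM in WT and 14.0, 19.5 and 16.1 CPM in LSD1 KO. Each LSD1 KO library was above the WT library of its number, with overlapping groups and a log2 fold change of 0.27 (SE 0.20, 95% interval -0.19 to 0.73, q = 0.389 with the block).

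A second list of 63 neuronal genes, which are not all known to carry an RE1 and were listed for comparison, gave 33 tested genes, with 21 log2 fold changes above 0 and 12 below, and a median of 0.12. In WT, 21 of the 63 were at the floor and 0 of them left it. Of all genes at the floor in WT with counts in any library, 0.469% left it (47 of 10024). That set leaves out 11 of the 21, which had 0 counts in all libraries. With so few genes, 0 of 21 cannot be told apart from this share. Of the 63, 11 had 0 counts in all libraries, GRIA2 with its exact RE1 letters among them. The model without the block called 0 of the 33, and 2 had an unadjusted p under 0.05, against 3.12% of all genes tested. The model with the block called 2 higher and 0 lower, against 1.05% and 0.549% of all genes tested, and DESeq2 called 1, against 0.37%. With the block, 10 of the 33 had an unadjusted p under 0.05 (30.3%), against 13.4% of all genes tested.

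CALB2 (calretinin, a calcium buffer of interneurons) was called higher by the model with the block and by DESeq2. It had 2.75, 7.22 and 4.8 CPM in WT and 6.57, 32.6 and 21.1 CPM in LSD1 KO, with an overlap between LSD1 KO replicate 1 and WT replicate 2. Its log2 fold change was 2.03 (SE 0.56, q = 0.905 without the block, q = 0.0136 by DESeq2), and with the block it rose by 1.90 (SE 0.20, q = 0.0106). NOVA2 (a neuronal splicing regulator) had 15.7, 18.3 and 33.4 CPM in WT and 29.7, 36.3 and 55.0 CPM in LSD1 KO. Each LSD1 KO library was above the WT library of its number, but LSD1 KO replicate 1 was below WT replicate 3, so the groups overlapped. Its log2 fold change was 0.84 (SE 0.33, q = 0.999), and with the block it rose by 0.87 (SE 0.10, q = 0.0151).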

How the data were processed

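RNA-seq of 3 WT and 3 LSD1 KO HCT116 libraries was analysed. The authors trimmed the reads with Trimmomatic 0.39, quantified them with Salmon 1.4.0 (per the submitters' processing notes) against GENCODE transcripts on GRCh38, and deposited expected counts per gene as whole numbers that are not scaled for library size. The step from transcripts to genes is not given in the sources used here. Symbols were matched through the Ensembl identifier for 58395 of 60240 genes.

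Counts were compared with edgeR 4.0.16 in R 4.3.3 (TMM, filterByExpr by group, quasi-likelihood test, Benjamini-Hochberg adjustment over 17672 genes, q under 0.1). CPM used TMM factors, and the SE is the log2 fold change divided by the root of F. An exact permutation test of 3 libraries against 3 cannot give p below 0.1 and was not used. The labels number the libraries 1 to 3 in both groups without saying that a number marks a shared batch. Same-numbered libraries correlated in their deviations from the group means (Pearson's r 0.553, 0.553 and 0.404 across 17672 genes), and differently numbered ones between -0.516 and 0.0454, so a second fit held the number as a block. This lowered edgeR's common biological variation coefficient from 0.279 to 0.133. Alternatives were DESeq2 1.42.0, RLE factors, other filters, thresholds and floors, and leaving out each library. Leaving out both replicate 2 libraries, and DESeq2 with the block, were chosen after seeing the data.

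The genes, gene lists and tests were chosen with earlier results of these data known. Values in every library are given for REST, KDM1A and, among the 37 genes, for those called in any of the 3 fits, those whose groups did not overlap and those with a mean of at least 1 CPM. Genes of the other lists are named where called in any of the 3 fits, and a few others were named after their values were seen. Gene positions, transcript lengths (canonical transcript, which may not be the isoform expressed) and shared 31-base words came from GRCh37 with GENCODE v44lift37, and promoter sequences from RefSeq on GRCh38.p14. Steps were tested on simulated data. Python 3.11.15, numpy 2.4.6, pandas 2.3.3 and matplotlib 3.10.9 were used.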

Additional observations from a re-analysis of the deposited data

How the results depend on the processing

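In the replicate block fit, which takes the replicate numbers as pairing, the 37 genes had 1 call higher (CEND1) and 1 lower (TUBB3), against 0 and 0 without it, and the second neuronal list had 2 calls. With both replicate 2 libraries left out of the block fit there were 1 higher (STX1A), 3 lower (TUBB3, BDNF and L1CAM) and 6 in the second list, among 1055 of 18043 genes called. DESeq2 with the block called 1 higher, 1 lower, 2 REST partners (KDM1A and ZNF217) and 3 of the second list, among 593 genes called over the whole table. Keeping all genes with counts called 114 of 33857 genes and gave 1 call higher (CEND1, q = 0.00881) and 1 in the second list, and DESeq2 without the block also 1 there, CALB2 in both. The number of genes leaving the floor was 0 under every floor and with each library left out. The number falling to it was 2 (NEFH and ELAVL3) when 2 of 3 libraries sufficed, and 0 to 1 with one library left out (ELAVL3 without WT replicate 2, NEFH without LSD1 KO replicate 1).

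The log2 fold changes of 14 of the 23 genes tested kept their sign in all alternatives, and 9 changed it in at least 1. REST, which ranged from -0.18 to 0.05, turned to 0.049 without WT replicate 1 and 0.054 without LSD1 KO replicate 2. Leaving out LSD1 KO replicate 2, both replicate 2 libraries, and both with the block, turned SYN1 (0.12, 0.087, 0.13), SYN2 (0.06, 0.076, 0.077) and VGF (-0.71, -0.26, -0.27). CPLX1 turned to -0.14 without WT replicate 1, -0.067 without LSD1 KO replicate 2 and -0.0062 without LSD1 KO replicate 3. Without WT replicate 2, SYP was 0.04 and UNC13A -0.089. Without WT replicate 3, L1CAM was 0.095 and DISP2 0.023, and L1CAM was 0.10 without LSD1 KO replicate 1. With one library left out at a time, the other ends of the ranges were -0.41 for SYP, -0.53 for SYN1, -0.36 for SYN2, 0.37 for CPLX1, 0.31 for UNC13A, 1.18 for VGF, -0.45 for L1CAM and -0.15 for DISP2. The cause was not tested. KDM1A stayed between -3.01 and -2.95. Genes under about 1 CPM rest on few counts, and for them a difference between groups may not be detectable at this depth.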
